A study of Homo sapiens with 13 samples.

Results

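Of the 88319 H3K4me1-enriched regions listed for MDA-MB-231 cells, 1592 (1.8%) were candidate inactive enhancers (cIEs) covered by RNA polymerase II (Pol II). They were chosen by peak overlap alone. Each region lay outside every 3 kb window centred on the transcription start site (TSS) of the canonical transcript of a protein-coding gene, shared no base pair with an H3K27ac region, a p300/CBP peak or a CTCF peak, and overlapped Pol II by 1 bp or more. Start sites of other transcripts were not excluded, and 247 of the regions (15.5%; 95% Wilson interval 13.8 to 17.4%) touched a 3 kb window around the start of some annotated basic transcript, against 9.05% of the same kind of region without Pol II. Among the 44960 distal H3K4me1 regions free of H3K27ac, p300/CBP and CTCF, 3.54% met the Pol II criterion. The remaining 43368 regions, cIEs without Pol II, served as the comparison, together with 3756 candidate active enhancers (cAEs) that carried H3K27ac and Pol II but no p300/CBP. Unlike the cIEs, these cAEs were not filtered for CTCF, and they are called cAEs with Pol II below.

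MDA-MB-231 is a human breast cancer cell line, triple-negative and of the basal B type. All libraries came from this 1 line under standard culture, so there was no contrast between conditions. Chromatin immunoprecipitation followed by sequencing (ChIP-seq) was done in 2 libraries for each of H3K4me1, H3K27ac, H3K4me3, Pol II and CTCF, and in 1 library of pooled immunoprecipitates for p300/CBP. Replicates had been merged into a single list of positions per antibody, with no count or height, so the depth behind a peak is unknown and the 95% intervals below cover counting error only. The sampled units are genomic regions, not biological replicates.

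H3K4me1 is deposited at enhancers and along their flanks, often before they become active, whereas H3K27ac, written mainly by p300 and CBP, accompanies activity. Pol II reaches enhancers when they are transcribed, but it also travels through gene bodies and slows beyond the poly(A) site before it is released from DNA. A Pol II peak over an H3K4me1 region can therefore belong to the region itself or to the transcription of the gene that contains it, and the lists alone do not separate these cases.

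The reference sequences of 5 of these cIEs are shown because they stand for the locations described below. The 300 bases at the centre of each region are given on the forward strand of GRCh37, with capitals marking TGANTCA. This pattern includes the consensus TGA(G/C)TCA recognised by AP-1 dimers such as those of Fra-1 and Fra-2. It also takes TGAATCA and TGATTCA, which are not that consensus. The first 3 are the widest regions lying wholly inside Pol II peaks in an intron, over an exon and 10 kb or more from protein-coding genes. The last 2, selected for holding the pattern, are the widest such regions in an intron and over an exon.
HMGA2 intron, chr12:66248601-66248900: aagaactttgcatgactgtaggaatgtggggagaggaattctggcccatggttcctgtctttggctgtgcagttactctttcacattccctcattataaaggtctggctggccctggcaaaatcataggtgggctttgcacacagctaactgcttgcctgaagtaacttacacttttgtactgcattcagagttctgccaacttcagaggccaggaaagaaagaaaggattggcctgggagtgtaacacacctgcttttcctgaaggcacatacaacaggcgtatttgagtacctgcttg
SLC20A1 gene body, chr2:113415026-113415325: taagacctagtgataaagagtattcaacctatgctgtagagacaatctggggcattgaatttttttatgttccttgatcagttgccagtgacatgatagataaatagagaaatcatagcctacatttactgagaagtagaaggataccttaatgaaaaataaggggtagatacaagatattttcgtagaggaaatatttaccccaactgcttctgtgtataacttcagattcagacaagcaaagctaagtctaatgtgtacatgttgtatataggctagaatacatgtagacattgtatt
10 kb or more from protein-coding genes, chr11:121962201-121962500: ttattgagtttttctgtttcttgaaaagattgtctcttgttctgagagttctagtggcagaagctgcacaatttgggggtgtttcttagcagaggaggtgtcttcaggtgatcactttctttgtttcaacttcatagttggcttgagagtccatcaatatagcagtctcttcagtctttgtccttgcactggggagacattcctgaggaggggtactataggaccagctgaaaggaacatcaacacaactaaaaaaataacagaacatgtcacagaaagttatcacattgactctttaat
HMGA2 intron, nearer the 3′ end, chr12:66332701-66333000: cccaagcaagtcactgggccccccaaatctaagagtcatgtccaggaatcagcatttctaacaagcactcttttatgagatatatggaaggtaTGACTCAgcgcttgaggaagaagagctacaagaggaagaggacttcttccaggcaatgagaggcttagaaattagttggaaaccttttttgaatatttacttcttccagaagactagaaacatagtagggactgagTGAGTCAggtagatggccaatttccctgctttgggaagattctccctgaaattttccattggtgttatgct
ANXA2 gene body, chr15:60645751-60646050: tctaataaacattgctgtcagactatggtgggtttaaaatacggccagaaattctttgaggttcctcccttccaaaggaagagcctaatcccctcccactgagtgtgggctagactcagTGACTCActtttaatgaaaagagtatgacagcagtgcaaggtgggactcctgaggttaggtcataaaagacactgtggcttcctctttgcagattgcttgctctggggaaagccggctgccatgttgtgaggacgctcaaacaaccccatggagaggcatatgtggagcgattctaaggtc
None of the first 3 windows held TGANTCA. The second HMGA2 window held it 2 times and the ANXA2 window 1 time. No window assigned to a gene contained exon bases of its canonical transcript, so those of SLC20A1 and ANXA2 were intronic although the full regions reached exons.

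The extent of Pol II cover varied widely among the 1592 cIEs, a quantity fixed in part by their selection. In all, 731 (45.9%; 95% Wilson interval 43.5 to 48.4%) lay wholly inside Pol II peaks, 326 were covered over 50% or more of their length, 420 over 10 to under 50%, and 115 over less than 10%. The median region had 88.2% of its length inside Pol II (interval of the median 84.7 to 94.2%). Median width was 1100 bp (1050 to 1150 bp; quartiles 650 and 1900 bp), against 900 bp for cIEs without Pol II. At the limit of the rule, 29 regions shared only 50 bp with Pol II, the smallest overlap the lists allow, and 23 cIEs counted as lacking Pol II directly abutted a Pol II peak. Similarly, 12 of the 1592 had H3K27ac within 50 bp, and 18 regions were left out for sharing 50 bp with H3K27ac. A further 264 distal regions with Pol II and no H3K27ac had been removed, 242 of them for CTCF and 28 for p300/CBP.

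The question addressed next was whether Pol II-covered cIEs belong to transcribed gene bodies. Gene annotation took no part in the selection beyond the exclusion of TSS windows. Of the 1592 regions, 1097 (68.9%; 66.6 to 71.1%) overlapped the body of a protein-coding gene, against 52.6% of cIEs without Pol II, a difference of 16.3 points (95% Newcombe interval 13.9 to 18.6). A promoter was called marked when its TSS window held both H3K27ac and H3K4me3, a chromatin signature of transcription start. The body of a gene with a marked promoter contained 64.8% of Pol II-covered cIEs (62.4 to 67.1%) and 37.5% of cIEs without Pol II, a difference of 27.3 points (24.9 to 29.7). A region that overlapped several genes was counted when any of them had a marked promoter, which favours regions in gene-dense places. Among cIEs with Pol II in a gene body, 94.0% (1031 of 1097) overlapped at least 1 gene with a marked promoter, compared with 71.2% for cIEs without Pol II. For cAEs with Pol II, the share in gene bodies was 51.4% and that in bodies of genes with a marked promoter 41.8%. Among such cAEs in a gene body, 81.4% overlapped at least 1 gene with a marked promoter. Pol II-covered cIEs were closer to H3K27ac than the others, with median distances of 6500 and 16350 bp. Within classes of that distance the difference for marked genes was 20.7 points (18.3 to 23.1), and within quartiles of region width it was 25.8 points (23.4 to 28.2).

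Exons were touched more often by Pol II-covered cIEs than by those without Pol II. The shares were 40.5% (645 regions; 38.1 to 42.9%) and 8.45%, with 30% for cAEs with Pol II. Inside gene bodies, an exon was touched by 645 of 1097 Pol II-covered cIEs and by 1128 of 1931 cAEs with Pol II. The parts of region width and host gene length in these shares were not tested. Between the kinds of cIE, intronic regions showed the opposite order, at 28.4% and 44.2%. A further 334 regions (21.0%) lay less than 10 kb past the 3′ end of a gene. This held for 4.61% of cIEs without Pol II and 13% of cAEs with Pol II. The share less than 10 kb upstream of a gene, and not also past a 3′ end, was 2.14% against 4.79%. Regions that met both conditions were counted as past a 3′ end, and their number was not determined. The regions 10 kb or more from any protein-coding gene made up 7.98% of Pol II-covered cIEs and 38.0% of those without Pol II. Of these, 60 of 127 (47.2%) and 30.7% overlapped a long noncoding RNA gene. Of the regions past a 3′ end, 93.7% followed a gene with a marked promoter. In that position the share was 54.7% for cIEs without Pol II and 76.6% for cAEs with Pol II.

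**Figure D1:**
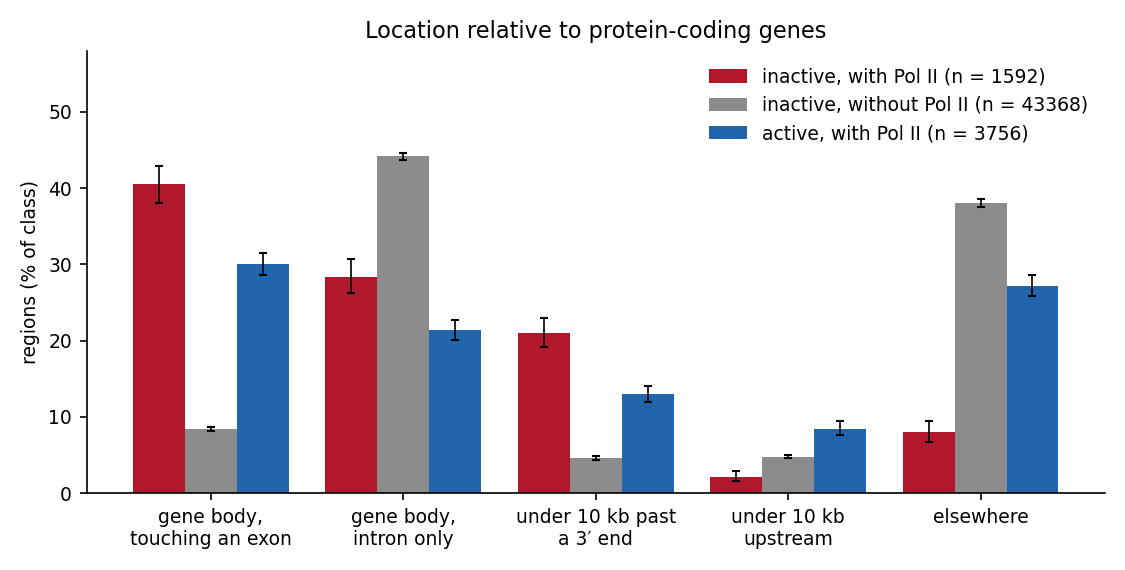
Share of each class of distal H3K4me1 region (y axis, % of class) by location relative to protein-coding genes (x axis), with bars for cIEs with Pol II, cIEs without Pol II and cAEs with Pol II; error bars are 95% Wilson intervals. Regions touching an exon and regions past a 3′ end made up 40.5% and 21.0% of Pol II-covered cIEs, against 8.45% and 4.61% of cIEs without Pol II. Regions both past a 3′ end and upstream of another gene were counted as past a 3′ end.

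Pol II-covered cIEs accumulated towards the 3′ ends of genes. With the TSS set at 0% and the 3′ end at 100% of the host gene, the median position of the 1047 regions centred in a gene was 72.1% (69.6 to 74.7%), against 45.2% (44.6 to 45.8%) for cIEs without Pol II and 52.9% (49.9 to 56.3%) for cAEs with Pol II. The last 10% of the gene held 25% of them and the first 10% held 2.48%. In cIEs without Pol II these shares were 8.57% and 10.5%. The rule left out TSS windows and H3K27ac regions, which lowers the share of the first 10%, and more so in short genes. How far this set the share near the TSS was not tested. Host genes were shorter for Pol II-covered cIEs, with a median length of 36.1 kb against 134.0 kb, and the median distance to the 3′ end was 7.41 kb against 60.4 kb. The shift in position was nevertheless present at every gene length examined. In hosts under 20 kb the medians were 71.1% and 52.2%, in hosts of 20 to 50 kb 73.1% and 43.8%, in hosts of 50 to 100 kb 73.2% and 42.9%, and in longer hosts 72.4% and 45.7%.

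The same comparison could be made inside single genes. Centres of both kinds of cIE were found in 350 genes, with counts of 494 for Pol II-covered cIEs and 1224 for cIEs without Pol II. A region centred in several overlapping genes counted for each of them, so overlapping genes are not separate observations. In 245 of these genes (70%; 65 to 74.6%) the median Pol II-covered cIE was nearer the 3′ end. The median displacement was 28.0% of the gene length (23.7 to 33.6%).

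The concentration at 3′ ends extended to both sides. The centre lay within 5 kb of a 3′ end for 781 Pol II-covered cIEs (49.1%; 46.6 to 51.5%), for 6.19% of cIEs without Pol II and for 24.7% of cAEs with Pol II. The difference between the kinds of cIE was 42.9 points (40.4 to 45.3). Measured from the nearest 3′ end of a gene with a marked promoter, 20.4% of Pol II-covered cIEs lay up to 5 kb before it and 26.6% up to 5 kb past it. The fullest interval of 2 kb was the one directly past the 3′ end, with 13.8% of Pol II-covered cIEs and 0.632% of cIEs without Pol II. The share within 5 kb, the distances from the 3′ end and the comparisons by gene length and inside single genes were added after the location classes had been seen.

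**Figure D2:**
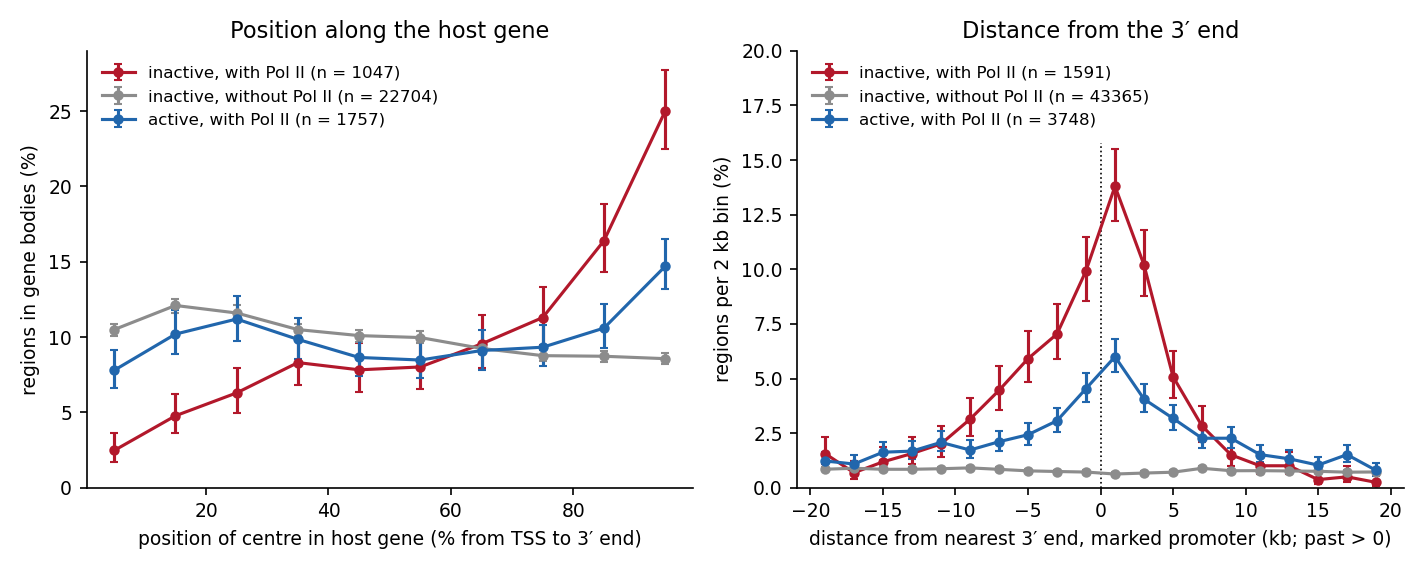
Left, position of the region centre in its host gene (x axis, % of the way from TSS to 3′ end) against the share of regions centred in gene bodies (y axis, %), in steps of 10%; right, distance in kb of the centre from the nearest 3′ end of a gene with a marked promoter, positive values lying past it, against the share of regions per 2 kb bin (%). Points are shares for each class and bars 95% Wilson intervals; Pol II-covered cIEs rose to 25% in the last 10% of the gene and to 13.8% just past the 3′ end, whereas cIEs without Pol II stayed at 8.57% and 0.632%.

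Pol II peaks without H3K4me1 and H3K27ac were also concentrated at 3′ ends. Among Pol II peaks touching no TSS window, 6494 overlapped neither H3K4me1 nor H3K27ac, and 55% of these (53.8 to 56.2%) were centred within 5 kb of a 3′ end. Their median position in gene bodies was 77.1% (75.9 to 78.5%). For the 1337 such peaks lying over Pol II-covered cIEs the values were 47.7% (45.1 to 50.4%) and 72.1%. For the 6794 that overlapped H3K27ac they were 15.7% (14.9 to 16.6%) and 48.4%. Peaks over Pol II-covered cIEs could themselves touch H3K27ac elsewhere, as 259 of all 1508 did, TSS windows included. Because Pol II was part of the selection, these values are descriptive.

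The 1592 cIEs lay under 1508 Pol II peaks, 5.79% of the 26065 listed, whose median width was 2150 bp against 800 bp for the remaining peaks. These peaks were picked by overlap, which favours wide ones. A TSS window was touched by 11.3% of them and by 41.7% of the remaining peaks, so the widths are only a description. Most of the 1508 peaks, 92.3%, covered a single cIE, and the largest number under 1 peak was 8. For 63.6% of the cIEs in gene bodies the Pol II peak reached neither the TSS window nor the 3′ end of the host gene. It reached the 3′ end alone for 28.1%, the TSS window alone for 2.83% and both for 5.47%. Of the 334 cIEs past a 3′ end, 107 (32.0%) shared a Pol II peak with that 3′ end.

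The degree of cover, which the selection used, is described here without a test. Of the 731 cIEs wholly inside Pol II peaks, 57.9% (54.3 to 61.4%) were centred within 5 kb of a 3′ end. The shares were 48.8% for those covered over 50% or more, 39.3% for 10 to under 50%, and 29.6% (22.0 to 38.5%) for those covered over less than 10%. Gene bodies were overlapped in the opposite order at the extremes, by 66.5% of the regions wholly inside Pol II and by 80% of those covered over less than 10%. The bodies of genes with a marked promoter held 63.1% and 74.8% of them. These classes also differed in median width, which was 850 bp for regions wholly inside Pol II and 2600 bp for the least covered, and its part in these shares was not tested.

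**Figure D3:**
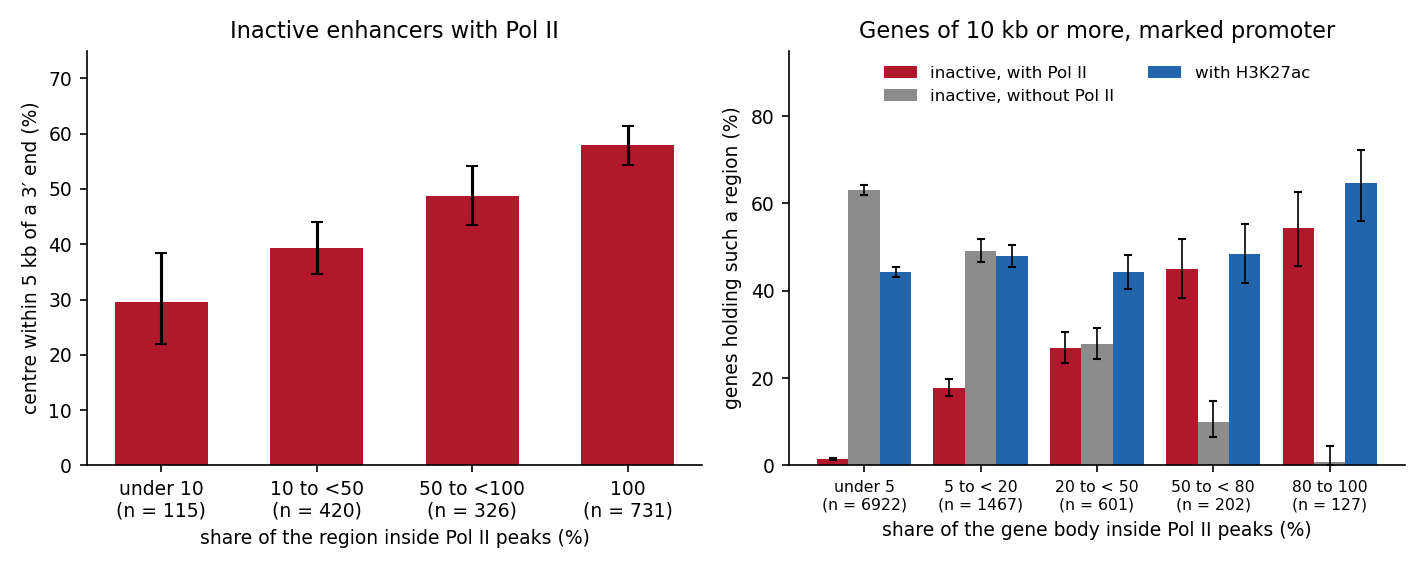
Left, share of Pol II-covered cIEs centred within 5 kb of a 3′ end (y axis, %) by the share of the region inside Pol II peaks (x axis, %); right, share of genes with a marked promoter and at least 10 kb long that hold each kind of distal H3K4me1 region (y axis, %) by the share of the gene body inside Pol II peaks (x axis, %). Error bars are 95% Wilson intervals; 29.6% of the least covered and 57.9% of the fully covered cIEs lay near a 3′ end, and 1.47% of the least covered and 54.3% of the most covered genes held a Pol II-covered cIE. Pol II cover was part of the selection, so both panels are descriptive.

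At the level of genes, 873 of 19894 protein-coding genes held at least 1 Pol II-covered cIE in their body, that is 4.39% of all genes. The share was 6.64% (6.21 to 7.10%) among the 11939 genes with a marked promoter and 1.01% (0.809 to 1.25%) among the 7955 without. In most hosts, 705 of 873, there was a single such region, 111 had 2, 30 had 3 and 27 had 4 or more. Pol II covered a median of 21.1% of the body of host genes, with a Pol II peak over the 3′ end in 60.3%. In the 11146 other genes with a marked promoter these values were 1.90% and 20.3%, although a Pol II peak touched the TSS window of 90% of the hosts and 93.4% of the others. A region centred within 5 kb of the 3′ end was found at 18.3% (16.9 to 19.8%) of genes with a marked promoter and Pol II over the 3′ end, and at 3.95% (3.57 to 4.37%) of those without Pol II there. Hosts were found through regions selected for a Pol II peak, so a higher Pol II cover follows from the rule and these values are given as a description.

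The more of a gene Pol II covered, the more often its inactive H3K4me1 regions fell under it, as the rule requires. Among genes with a marked promoter and a length of 10 kb or more, 127 had at least 80% of the body inside Pol II peaks. Pol II-covered cIEs were present in 69 of these (54.3%; 45.7 to 62.7%) and numbered 152, while a single cIE without Pol II was found. Distal H3K4me1 regions with H3K27ac occurred in 64.6% of the same genes. In the 6922 genes with under 5% of the body covered, 1.47% held a Pol II-covered cIE and 44.4% an H3K27ac-marked one.

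The 15 genes with most such regions differed in function. ARHGEF28, a guanine nucleotide exchange factor, and HMGA2, an architectural chromatin protein expressed in mesenchymal tumours, held 14 each. CMIP held 11. NEDD4L and SMURF2, both E3 ubiquitin ligases, held 8 each, and CRIM1, a membrane protein that binds bone morphogenetic proteins, held 7. There were 6 each in RTN4 (shaping of the endoplasmic reticulum), MYOF (membrane fusion and repair), CPNE1 (calcium-dependent membrane binding), DST (linkage of cytoskeletal filaments), ARHGAP29 (a GTPase-activating protein) and LAMB3 (a laminin chain). FRMD6, a FERM domain protein, held 5. All 15 promoters carried H3K27ac and H3K4me3, and all but those of CMIP and NEDD4L had a Pol II peak. A region that overlaps several genes counts for each of them.

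These genes fell into very different patterns of Pol II cover. LAMB3 was covered over 100% of its length, SMURF2 over 96.4%, ARHGAP29 over 94.9%, CRIM1 over 89.2% and HMGA2 over 83.2%. None of these 5 genes held a cIE without Pol II. In contrast, Pol II covered 2.87% of NEDD4L, 8.97% of FRMD6, 9.5% of RTN4, 10.2% of DST and 10.4% of ARHGEF28, where 13, 5, 5, 16 and 7 cIEs without Pol II lay in the same body. CPNE1, MYOF and CMIP were intermediate, at 56.6%, 51.1% and 31.5%.

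HMGA2 illustrates a gene covered by separate Pol II peaks. Its canonical transcript spans chr12:66218263-66360071 on the forward strand, 141.8 kb, and 20 Pol II peaks lay over it. The 14 Pol II-covered cIEs were centred between 14.7 and 135.6 kb from the TSS and were 550 to 8600 bp wide. They alternated with 3 H3K4me1 regions that carried H3K27ac, the largest of which ran from 40.7 to 79 kb. No cIE in this gene lacked Pol II. The first HMGA2 sequence above is the centre of the widest of the 14, at chr12:66244451-66253051, which touched the start site of an annotated basic transcript other than the canonical one, and the second that of a 4700 bp region at chr12:66330501-66335201.

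LAMB3 was spanned by a single Pol II peak that began before the TSS and ended past the 3′ end. In this gene (chr1:209788215-209825770, reverse strand) the 6 Pol II-covered cIEs were centred 11.0 to 35.7 kb from the TSS and were 350 to 1800 bp wide. The H3K27ac and H3K4me3 regions inside the body ended within 10 kb of the TSS, and the Pol II-covered cIEs lay beyond. SLC20A1, a sodium-dependent phosphate transporter, had 1 region of 14450 bp (chr2:113407951-113422401), wholly inside a Pol II peak. It lay next to the promoter domain, with H3K27ac 300 bp away and 1950 bp of H3K4me3 inside it, and ran past the 3′ end.

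**Figure D4:**
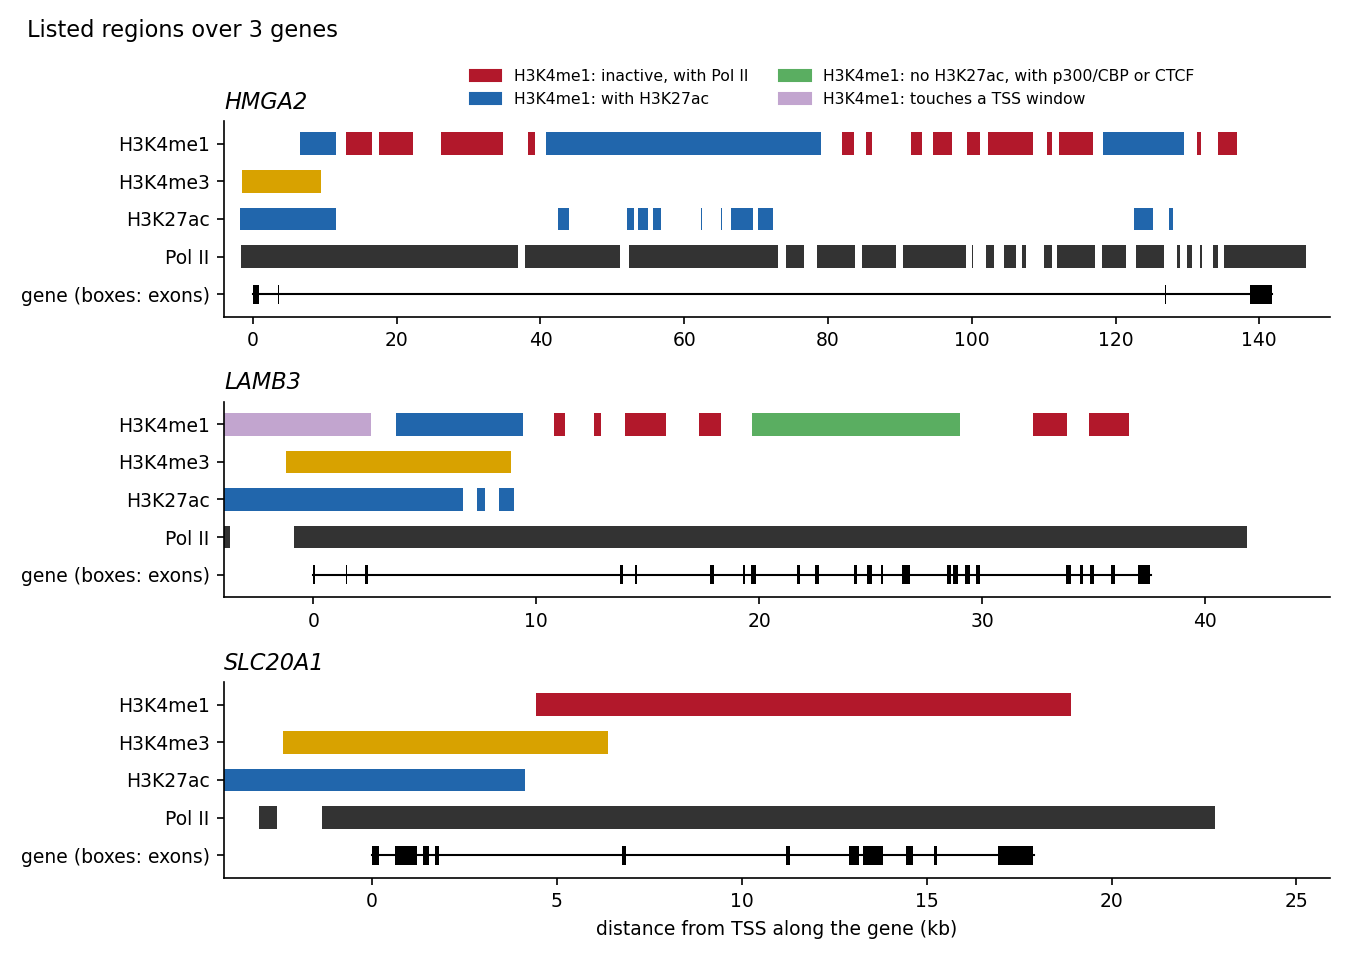
Listed regions of H3K4me1, H3K4me3, H3K27ac and Pol II over HMGA2, LAMB3 and SLC20A1, against distance from the TSS along the gene in kb (x axis, each gene to its own scale); black boxes are exons of the canonical transcript and colours on the H3K4me1 row give the kind of region. The 14, 6 and 1 Pol II-covered cIEs (red) lay downstream of the H3K27ac at the promoter.

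Among the 10 widest Pol II-covered cIEs, the overlap with Pol II ranged from marginal to complete. The widest, 15950 bp in UGCG (ceramide glucosyltransferase), shared only 150 bp with Pol II, and that of 15500 bp in ANKRD28 shared 1200 bp. The region of 7950 bp in CNN3 (calponin, an actin-binding protein) likewise shared 150 bp. Those in RBM39 (a splicing factor, 9250 bp) and HMGA2 (8600 bp) lay wholly inside Pol II peaks, as did the SLC20A1 region, and that in BCAR3 (8550 bp) had 86.5% of its length inside them. The ARHGEF28 region of 8450 bp had 29.6%. The remaining pair, 11650 bp on chromosome 7 and 9900 bp on chromosome 8, lay 10 kb or more from protein-coding genes with 40.8% and 38.4% of their length in Pol II. By stretch in Pol II the first 4 were SLC20A1, RBM39, HMGA2 and BCAR3, followed by a region 10 kb or more from protein-coding genes at chr3:44065851-44073251 with 7350 of its 7400 bp covered.

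Lists of genes of known function were read against the shares of all genes (4.39%) and of genes with a marked promoter (6.64%). Of 27 genes of the actin cytoskeleton and focal adhesions, 7 held a Pol II-covered cIE: ACTN1 held 3, VCL and PXN 2 each, and TPM4, MYL9, FLNA and TLN1 1 each. Of 35 genes of the extracellular matrix and integrins, 6 did so, with LAMB3 first. Of 25 genes of EGFR, RAS and MAPK signalling, 5 did so, among them EGFR with 3 and HRAS, MAP2K2 and HBEGF with 1 each. Glycolytic and housekeeping genes gave 4 of 24, including PFKP with 3, PKM and EEF2, the last pair with 100% of the body inside Pol II. The genes of Pol II, elongation and termination gave 3 of 25 (PCF11, POLR2B and CPSF1), and the AP-1 family 1 of 15 (MAFF). A list of 33 genes with capture probes in the chromatin conformation experiments of the study held 32 annotated as protein-coding. Of these 32, 4 held one, namely KRT80 with 3, ZNF114 with 2, and CD44 and HEG1 with 1 each. CD44 had probes but is not named among the genes whose interactions the study describes.

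Markers of other cell types were also read. None of 20 neuronal genes held a Pol II-covered cIE. Their median length was 376.7 kb, and 4 of them had a marked promoter. Of 20 luminal and epithelial genes 1 held such a region (KRT8), with 6 marked promoters. The share was 4.39% over all genes and 1.01% over genes without a marked promoter. Lists of 20 genes are too short to tell either count from these shares. The list of nuclear lncRNAs gave no value, since only 1 of its 7 names was annotated as protein-coding, and that gene held none. The lists differ in gene length and were compared with no test.

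H3K4me3 was rare. Its list took no part in the selection, but the exclusion of TSS windows and H3K27ac regions favours a low share. H3K4me3 overlapped 66 Pol II-covered cIEs (4.15%; 3.27 to 5.24%) and 2.79% of cIEs without Pol II, a difference of 1.35 points (0.463 to 2.46). The share was 71.3% for cAEs with Pol II, which carried H3K27ac by definition and were wider (median 2950 against 1100 bp). The difference from cIEs without Pol II fell to 0.146 points (-0.447 to 0.995) once regions with H3K27ac, p300/CBP or CTCF within 1000 bp were removed. The start site of any annotated basic transcript, noncoding ones included, was touched by 94 Pol II-covered cIEs (5.90%; 4.85 to 7.17%) and by 2.93% of cIEs without Pol II. Of the 66 regions with H3K4me3, 5 touched such a start site. Long noncoding RNA genes were overlapped by 14.8% of Pol II-covered cIEs and 17.4% of the others.

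The AP-1 element was less frequent in Pol II-covered cIEs. TGANTCA, which reads the same on both strands, occurred in the central 300 bp of 204 of 1592 regions (12.8%; 11.3 to 14.5%) and of 22.9% of cIEs without Pol II, a difference of -10.1 points (-11.7 to -8.28). Over both kinds together the share was 22.5%. The share in cAEs with Pol II was 13.3%, and the interval of its difference from Pol II-covered cIEs ran from -2.41 to 1.53 points. These cAEs were chosen without p300/CBP, so they do not stand for all active enhancers. They were also wider (median 2950 against 1100 bp), so the central 300 bp are a smaller part of them. The part of both in this comparison was not tested. Separate locations gave the same order for the kinds of cIE. Over exons the shares were 11.8% with Pol II and 19.1% without, in introns 13.3% and 20.8%, past 3′ ends 15.9% and 21.2%, and 10 kb or more from protein-coding genes 8.66% and 26.3%. Within location classes the difference was -7.99 points (-9.76 to -6.22). Pol II-covered cIEs had a higher G+C content, with a median of 49.3% (48.7 to 50%) against 45.0% and, for cAEs with Pol II, 50.7%. Within quartiles of G+C content the difference in TGANTCA was -8.72 points (-10.4 to -7.03). Regions wholly inside Pol II held the pattern in 11.2% of cases and those partly inside in 14.2%, with overlapping intervals (9.13 to 13.7% and 12.0 to 16.7%). A match describes the letters in this window, not a bound site.

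**Figure D5:**
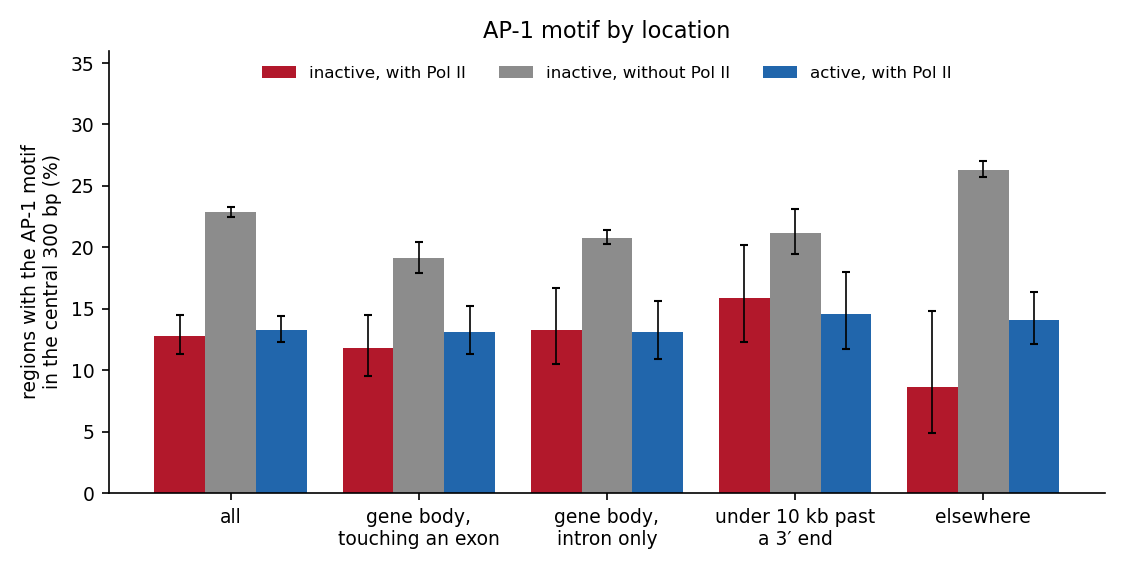
Share of regions with TGANTCA, the pattern that includes the AP-1 consensus, in the central 300 bp (y axis, %) by location (x axis). Bars show cIEs with Pol II, cIEs without Pol II and cAEs with Pol II, the last chosen without p300/CBP. Error bars are 95% Wilson intervals. Pol II-covered cIEs stood at 8.66 to 15.9% and cIEs without Pol II at 19.1 to 26.3% in the 4 locations.

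Pol II-covered cIEs were unevenly spread over the chromosomes. Their share of all cIEs free of p300/CBP and CTCF was 12.5% on chromosome 19 (159 of 1275), 6.62% on chromosome 17 and 5.56% on chromosome 16, and 1.61% on chromosome 8. Counted per gene with a marked promoter, the order was different, with 0.171 regions on chromosome 19, 0.254 on chromosome 20 and 0.0304 on chromosome X. The number of gene copies per cell, which varies along the chromosomes of this line, was not measured, and its part in these counts was not tested. Another Pol II-covered cIE lay within 5 kb of 28.1% of them and within 50 kb of 51.5%.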

How the data were processed

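Peak positions of ChIP-seq in MDA-MB-231 cells were used, 1 list per antibody. The authors kept uniquely mapped reads on hg19, binned them at 50 bp with PASHA, combined replicates, and took stretches of signal above a threshold as peaks. The aligner is given as BWA-backtrack in the methods and as Bowtie2 in the submitters' processing notes. By their deposited names, the histone mark and p300/CBP lists rest on signal scaled and corrected for background, that of Pol II on signal scaled only, and that of CTCF on signal without either step. Pol II peaks were thus not corrected for input. Neighbouring peaks were joined across gaps, with wider gaps for H3K4me1 and Pol II than for p300/CBP and CTCF, which lengthens regions and can bring marks into contact. Depth per sample is unknown. Inputs were not analysed here.

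Listed ends were taken as the first base after the peak. Every listed position is 1 past a multiple of 50. All listed positions fitted GRCh37 chromosome lengths, except on the mitochondrial genome, which held no Pol II-covered cIE. Genes were canonical transcripts of protein-coding genes from GENCODE 44 mapped to GRCh37 (19894 windows), in place of the RefSeq set of the study. Overlaps were computed with Python 3.11.15, NumPy 2.4.6, pandas 2.3.3 and SciPy 1.17.1, figures with matplotlib 3.10.9, and interval functions were tested on simulated data. No column was left unmapped. Shares carry 95% Wilson intervals, differences Newcombe intervals and medians order-statistic intervals; stratified differences used Mantel-Haenszel weights. No p-value was computed, since peaks are not replicates.

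Regions and gene lists were chosen with earlier results of these data known. Named were the 15 genes with most regions, the 10 widest regions, the 5 with the longest stretch in Pol II, and list genes holding a region; some genes and sequences that these rules select are not reported here. The alternatives tried changed the overlap, peak widths, excluded marks, TSS windows, gene span and strata.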

Additional observations from a re-analysis of the deposited data

How the results depend on the processing

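Of 62 alternatives over 9 results, 53 left the direction and the side of 0 of the interval, or the value within its interval or 1.5 times the count, as given above, and none turned a direction. Requiring 50% of the H3K4me1 region inside Pol II left 1057 regions, of which 69.2% lay wholly inside Pol II, with a median position of 77.4%, a median G+C content of 50.7% and an H3K4me3 difference of 0.138 points (-0.736 to 1.35). Restricting both lists to peaks at least as wide as their median left 541 regions, with a median G+C content of 48.3% and an H3K4me3 difference of 1.15 points (-0.357 to 3.28). The fall in number follows from the stricter rule; for the other values the cause was not tested. Without H3K27ac, p300/CBP or CTCF within 1000 bp the H3K4me3 difference was 0.146 points. The share near 3′ ends differed by 41.8 to 48.9 points and that with TGANTCA by -10.2 to -7.99 points over their alternatives. Differences within classes of distance to H3K27ac, the gene record span, the strata for TGANTCA and all alternatives for 3′ ends were chosen after seeing the data. No paired analysis was possible because replicates were merged before peaks were called, so no replicate could be left out either. Lists without counts limit what can be said of weak peaks.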

Other observations

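The hexamer of the poly(A) signal, AATAAA, or its reverse complement TTTATT occurred in the central 300 bp of 23.6% of Pol II-covered cIEs (21.6 to 25.8%), 32.8% of cIEs without Pol II and 24.1% of cAEs with Pol II. Past 3′ ends the shares were 19.8%, 26.8% and 20.9%. This count was added after the nearness to 3′ ends had been seen, and it was not compared within classes of G+C content. The median CpG observed-over-expected ratio was 0.218 (0.207 to 0.228) in Pol II-covered cIEs, 0.186 in cIEs without Pol II and 0.262 in cAEs with Pol II.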
